A study of Mus musculus with 16 samples.

Results

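Glutathione transferases (Gst), cytosolic sulfotransferases (Sult) and UDP-glucuronosyltransferases (Ugt) were followed in the colon of mice born vaginally or by cesarean section, with and without dextran sulfate sodium (DSS). The set was taken by gene symbol: it holds every row of the expression table whose Ensembl identifier maps to a mouse symbol beginning with Gsta, Gstm, Gstp, Gstt, Gsto, Gstz, Gstk, Sult1 to Sult6 or Ugt1 to Ugt3, pseudogenes excepted. This gave 50 of 39328 genes, namely 22 glutathione transferases, 12 sulfotransferases and 16 glucuronosyltransferases. The names were the only criterion, and no measured value entered the choice.

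The animals were adult wild-type ICR mice, an outbred stock. CON_VD mice were born vaginally and CON_CS mice by cesarean section, and both drank normal water. DSS_VD and DSS_CS mice were born in the same respective ways and for 8 days received 3% DSS, a sulfated polysaccharide that damages colon epithelium. RNA of whole colon was sequenced in 4 libraries per group, 16 in all, and the study concerned colitis in cesarean-born offspring, Lactobacillus and group 3 innate lymphoid cells. The labels do not say that each library came from a separate mouse, so p-values measure the spread between these samples. The labels give no sex, litter or exact age.

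These enzymes carry out the conjugation step of drug metabolism. Glutathione transferases join glutathione to electrophiles, sulfotransferases move sulfate from the donor PAPS to phenols, amines and sterols, and glucuronosyltransferases move glucuronic acid from UDP-glucuronate to phenols, bilirubin, steroids and bile acids. The conjugates are more water-soluble and leave the cell through export pumps, and in the gut the lining epithelium is a main site of this first-pass metabolism of food compounds and microbial products.

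The genes lie close together. Of the 50, 39 fell into 9 chromosomal runs in which neighbours were at most 250 kb apart (GRCm38), and 11 stood alone. All 7 mu-class glutathione transferases lie within 149.1 kb on chromosome 3 (107895821 to 108044894), and 8 Ugt1a genes within 149.2 kb on chromosome 1 (88070800 to 88220002). On chromosome 5, 5 Ugt2b genes span 86889767 to 87140318, and Sult1b1, Sult1d1 and Sult1e1 follow in a second run with Ugt2b38 and Ugt2a1 (87409942 to 87591594).

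The 250 bases upstream of the transcription start are printed for 5 genes, because the results turn on them: Sult1a1, Ugt1a1 and Ugt2b34 fell steeply under DSS, and the neighbours Sult1b1 and Sult1d1 differed between the birth modes under DSS. Each is written 5′ to 3′ on the strand of the gene, from RefSeq on GRCm38.p6. Capitals mark the dioxin response element core in Sult1d1, and the other windows held none of the motifs searched. The windows are chr7:126676419-126676668, chr5:87538196-87538445, chr5:87569007-87569256 and chr5:86906938-86907187, all on the minus strand, and chr1:88211709-88211958 on the plus strand.
Sult1a1: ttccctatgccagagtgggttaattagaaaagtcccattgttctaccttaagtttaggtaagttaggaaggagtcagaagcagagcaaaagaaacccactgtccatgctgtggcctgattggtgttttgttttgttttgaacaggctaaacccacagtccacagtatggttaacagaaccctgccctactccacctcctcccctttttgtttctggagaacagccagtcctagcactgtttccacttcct
Sult1b1: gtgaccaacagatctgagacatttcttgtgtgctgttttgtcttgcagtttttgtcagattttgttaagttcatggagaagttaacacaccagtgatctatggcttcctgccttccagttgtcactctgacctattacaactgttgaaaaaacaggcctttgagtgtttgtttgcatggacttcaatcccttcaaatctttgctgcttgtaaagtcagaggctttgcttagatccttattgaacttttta
Sult1d1: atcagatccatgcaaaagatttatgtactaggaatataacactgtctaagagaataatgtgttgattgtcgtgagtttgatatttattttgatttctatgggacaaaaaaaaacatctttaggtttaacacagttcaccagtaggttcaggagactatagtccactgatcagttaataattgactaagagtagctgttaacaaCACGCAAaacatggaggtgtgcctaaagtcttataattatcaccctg
Ugt2b34: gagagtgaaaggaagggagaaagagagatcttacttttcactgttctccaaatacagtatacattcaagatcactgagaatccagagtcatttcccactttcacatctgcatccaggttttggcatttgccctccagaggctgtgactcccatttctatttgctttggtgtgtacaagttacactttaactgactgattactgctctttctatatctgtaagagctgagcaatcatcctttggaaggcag
Ugt1a1: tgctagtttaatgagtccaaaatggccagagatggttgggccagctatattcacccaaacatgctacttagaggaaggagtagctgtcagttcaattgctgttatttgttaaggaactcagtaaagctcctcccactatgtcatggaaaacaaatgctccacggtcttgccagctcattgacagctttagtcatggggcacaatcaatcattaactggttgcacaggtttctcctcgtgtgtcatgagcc

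RefSeq gave 55 such windows for 45 of the 50 genes, and 5 motifs were searched on both strands. The HNF4 site CAAAGTCCA was present in none of these genes and in 0.384% of all 32851 promoters. The dioxin response element core TNGCGTG, bound by the aryl hydrocarbon receptor, was upstream of Gsta2, Sult1d1 and Ugt1a5 (4.1% of all). The antioxidant response element core TGACNNNGC, bound by Nrf2, was upstream of Gsta3, Gstm5 and Gstm7 (10.2% of all). The CDX site TTTATNG was upstream of Gsta2 and Gstm6 (9.81% of all), and the TATA box TATAAA, which can overlap it, upstream of 7 of the 45 genes (12.4% of all). The percentages are shares of all promoter windows. Counted by window, the last 4 motifs were in 3, 3, 2 and 7 of the 55 windows, in the order given. A match describes the letters in these windows and does not show binding.

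Values are FPKM as deposited, fragments scaled by transcript length and by mapped fragments per library, so that levels may be set beside each other across genes. FPKM sums ran from 280135 to 343423 per library and 24150 to 26328 genes were above 0. Read depth is unknown, and a listed 0 may be an estimate that failed. The colon label was set beside marker sums. All 10 pan-epithelial markers were detected in all groups, with the sum led by Krt8. The absorptive colonocyte sum was led by Car1 in both water groups. Liver markers summed to at most 13.5 FPKM and small intestine markers to at most 35.2 FPKM. The prostate and seminal vesicle markers summed to at most 1493 FPKM, in DSS_CS. The sum of the 10 pan-epithelial markers was 5638 to 6786 FPKM in CON_VD and 6190 to 6841 in CON_CS, against 2664 to 5792 in DSS_VD and 882 to 2739 in DSS_CS. Pbsn, a secretory gene of the prostate, exceeded 100 FPKM in 3 libraries, CON_CS replicate 1 and DSS_CS replicates 3 and 4, so transferase calls that end without these libraries are stated beside the gene or count.

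Of the 50 genes, 34 reached 1 FPKM in at least 1 library and 19 reached 10 FPKM. Glutathione transferases reached 1 FPKM in 20 of 22 cases, sulfotransferases in 7 of 12 and glucuronosyltransferases in 7 of 16. The 16 genes that stayed under 1 FPKM in every library were Gsto2, Gstt4, Sult1c1, Sult3a2, Sult5a1, Sult6b1, Sult6b2, Ugt1a2, Ugt1a5, Ugt1a8, Ugt2a1, Ugt2b1, Ugt2b36, Ugt2b38, Ugt2b5 and Ugt3a2. Sult3a2 was listed at 0 in all 16 libraries. In water-drinking VD mice the highest levels were those of Sult1a1 at 185 ± 44 FPKM (SD, n = 4), Gstp1 at 151 ± 34.2, Gstm1 at 143 ± 19.3 and Gsto1 at 108 ± 11.4. Ugt2b34 at 90.2 ± 12, Sult1d1 at 66.6 ± 13.1 and Sult1b1 at 63.5 ± 9.16 FPKM followed. Neighbours in this order, such as Sult1a1 and Gstp1 or Gstp1 and Gstm1, overlapped in their libraries.

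**Figure D1:**
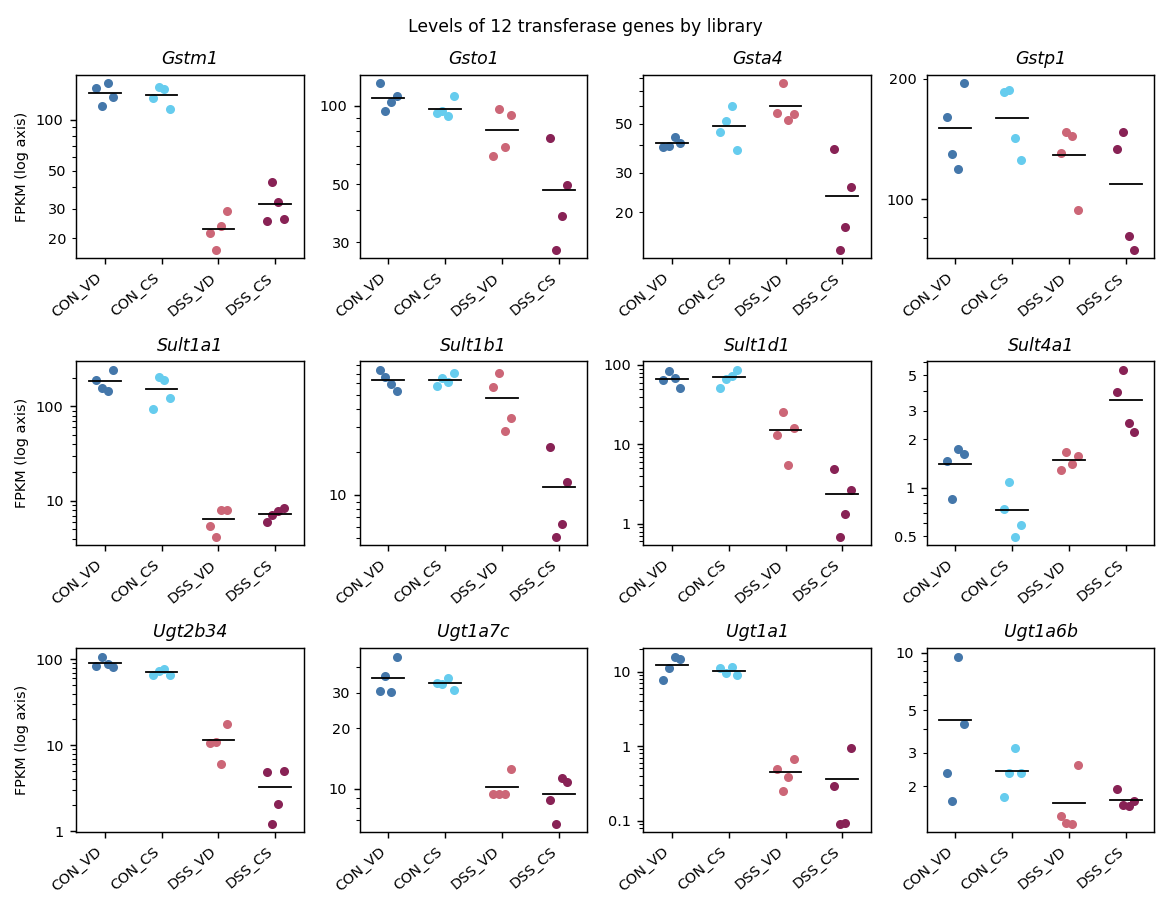
FPKM (log axis) of 12 transferase genes in each of the 16 libraries, by group; points are libraries and bars are means of 4. Gstm1, Sult1a1, Sult1d1, Ugt2b34, Ugt1a7c and Ugt1a1 are lower in every DSS library than in every water library, Gsta4 in DSS_VD is above the CON_VD range, and Sult4a1 is highest in DSS_CS.

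The first question was what DSS did to these genes. Under DSS most of the tested conjugating enzymes were lower, 21 of 32 in VD mice and 25 of 33 in CS mice, with members of all 3 families among them. Sult1a1, the main phenol sulfotransferase, was 28.7-fold lower than with water in VD mice and 20.9-fold lower in CS mice, and Ugt1a1, the bilirubin glucuronosyltransferase, 27.3-fold and 28.8-fold lower. Ugt1a1 was under 1 FPKM in every DSS library, and without DSS_CS replicate 4 its mean was 65-fold lower in CS mice. All 7 mu-class glutathione transferases fell in both birth groups. Of these, Gstm6 in both birth groups and Gstm3 and Gstm7 in CS mice reached 1 FPKM in the water group alone. They and Ugt1a1 therefore had to differ once tested. Gstp1, the pi-class enzyme with the highest mean level of its family over the 16 libraries, did not pass the test in either birth group.

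In VD mice 32 of the 50 genes passed the filter on low values, and 21 were lower and 1 higher under DSS at an adjusted p under 0.05. Over the whole table, 40.9% of 13933 tested genes were called, 17% lower and 24% higher. In CS mice 33 were tested, with 25 lower and 2 higher, where 60.3% of 14372 genes were called, 25.9% lower and 34.4% higher. These 2 comparisons share no library, and every gene that was lower in VD mice was also lower in CS mice: the 21 are 100% of the VD list and 84% of the CS list. The others lower in CS mice were Gsta4, Gstk1, Gsto1 and Sult1b1. The overlap includes genes that had to differ in 1 or both comparisons, and its counterpart over the whole table was not computed. Some genes passed the filter through the water group alone, with no DSS library at 1 FPKM, and so had to differ: 4 of the 32 in VD mice (Gsta3, Gstm6, Ugt1a1 and Ugt2b35) and 7 of the 33 in CS mice (the same 4 with Gstm3, Gstm7 and Sult2b1). Of the other genes 17 of 28 were lower in VD mice and 18 of 26 in CS mice, and their median log2 difference was -0.83 and -1.07, against 0.06 over all tested genes in each comparison. These others still held genes that passed mainly through 1 group, such as Gstm3 in VD mice and Sult4a1 and Sult1e1 in CS mice. Their counts and medians are therefore not free of the filter. Without the 3 libraries with over 100 FPKM of Pbsn, 23 genes passed the filter in CS mice, and 14 of them were lower and 0 higher. Sult4a1, Sult1e1 and the genes that reached 1 FPKM in the water group alone no longer passed the filter there. In whole tissue, fewer cells of a type and less RNA per cell cannot be told apart.

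Among glutathione transferases, 13 of 20 tested were lower in VD mice and 16 of 20 in CS mice, with 1 higher in VD mice. Without the members that reached 1 FPKM in the water group alone, 11 of 18 and 12 of 16 were lower. Gstm1, the most abundant mu-class enzyme (chromosome 3, 108012255 to 108017973, minus strand), was at 153, 120.4, 164 and 135 FPKM in CON_VD and 21.5, 17.1, 23.8 and 29 in DSS_VD. In CON_CS it was at 133, 155, 151 and 116, and in DSS_CS at 25.4, 43.2, 32.6 and 26. Every DSS library lay below every water library of its birth mode. On the log2(FPKM + 1) scale Gstm1 fell by 2.61 ± 0.17 (adjusted p = 1.87e-05) in VD mice and fell by 2.11 ± 0.18 (adjusted p = 1.31e-05) in CS mice, where each error is the standard error and each adjusted p comes from limma.

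Gstm3, another mu-class enzyme in the same run, went from 23.6, 20.8, 28.8 and 31.4 FPKM in CON_VD to 0.0485, 0.74, 0.457 and 1.08 in DSS_VD. It went from 30, 27.2, 24.4 and 17.9 in CON_CS to 0.552, 0, 0 and 0.375 in DSS_CS, listed at 0 in replicates 2 and 3. Gstm3 was thus close to undetected under DSS. It fell by 4.13 ± 0.22 (adjusted p = 6.7e-06) in VD and fell by 4.40 ± 0.20 (adjusted p = 5.69e-07) in CS mice, the steepest change of the family. Gstm6 was at 7.36, 5.8, 7.47 and 8.15 FPKM in CON_VD, 5.77, 6.33, 5.52 and 4.76 in CON_CS, 0.64, 0.844, 0.331 and 0.547 in DSS_VD and 0.293, 0.511, 0.302 and 0.148 in DSS_CS. Gstm7 was at 6.33, 6.66, 7.7 and 5.71, 4.87, 6.39, 5.63 and 5.3, 1.22, 0.512, 1.02 and 0.931 and 0.646, 0.823, 0.512 and 0.723 FPKM in the same order of groups. For both genes the DSS and water libraries did not overlap. For Gstm6 in both birth groups, and for Gstm3 and Gstm7 in CS mice, this was fixed beforehand, since only water libraries reached 1 FPKM. In VD mice Gstm3 also passed the filter mainly through the water group, since its highest DSS_VD value was 1.08 FPKM and the others were under 1 FPKM. Gstm6 fell by 2.37 ± 0.14 (adjusted p = 9.64e-06) in VD and fell by 2.33 ± 0.11 (adjusted p = 8.17e-07) in CS mice, and Gstm7 fell by 1.99 ± 0.14 (adjusted p = 2.74e-05) and fell by 1.96 ± 0.10 (adjusted p = 9.99e-07).

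The other mu-class genes changed less. Gstm2 was at 55.8, 44.3, 52 and 47 FPKM in CON_VD, 44.4, 47.2, 40.2 and 44.4 in CON_CS, 14.6, 12.2, 16.6 and 18.3 in DSS_VD and 16.2, 18.4, 20.5 and 24.2 in DSS_CS. Gstm5 was at 28, 24.8, 26.4 and 25.6, 25.2, 24.4, 25 and 26.9, 13.1, 13.8, 9.57 and 15.5 and 12.2, 13.3, 9.43 and 13.1 FPKM in the same order of groups. The DSS libraries of both genes stood below the water libraries without overlap. Gstm2 fell by 1.64 ± 0.14 (adjusted p = 5.95e-05) in VD and fell by 1.13 ± 0.12 (adjusted p = 5.68e-05) in CS mice, and Gstm5 fell by 0.97 ± 0.14 (adjusted p = 0.000617) and fell by 1.03 ± 0.11 (adjusted p = 5.13e-05). Gstm4 fell by 0.79 ± 0.10 (adjusted p = 0.00041) in VD and fell by 0.70 ± 0.12 (adjusted p = 0.000953) in CS mice. Within the mu-class run, the log2 difference therefore ranged from -0.79 to -4.13 in VD mice between genes at most 149.1 kb apart. Sequence is shared among them: 28.8% of the 50-base words in Gstm3 transcripts and 18.9% in Gstm1 transcripts also occur in other genes, with the largest shares in Gm8834 and Gstm2-ps1, so their split depends on how reads were assigned. Gstm5 overlaps exons of 4933431E20Rik on the opposite strand, and the labels do not state whether strand was used in counting.

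Theta-class genes followed the same direction. Gstt1 was at 11.2, 11.7, 11.8 and 18.5 FPKM in CON_VD, 17.1, 19.4, 10.7 and 13.9 in CON_CS, 6.33, 4.81, 8.97 and 4.9 in DSS_VD and 6.03, 9.72, 5.61 and 5.92 in DSS_CS. The DSS libraries lay below the water libraries of their birth mode. Gstt1 fell by 0.99 ± 0.21 (adjusted p = 0.00501) in VD and fell by 1.05 ± 0.21 (adjusted p = 0.002) in CS mice, where the adjusted p was 0.0708 without the 3 libraries with over 100 FPKM of Pbsn. Gstt3 fell by 1.39 ± 0.13 (adjusted p = 8e-05) and fell by 1.78 ± 0.10 (adjusted p = 1.44e-06), and the alpha-class Gsta3 fell by 1.49 ± 0.17 (adjusted p = 0.000215) and fell by 2.32 ± 0.20 (adjusted p = 1.6e-05). Gsta3 reached 1 FPKM in the water groups alone and so had to differ. Gstz1, the zeta-class isomerase of tyrosine breakdown, fell by 0.68 ± 0.13 (adjusted p = 0.00244) in VD and fell by 0.40 ± 0.11 (adjusted p = 0.0146) in CS mice, where its ranges overlapped.

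Of the pi-class neighbours Gstp1 and Gstp2, only Gstp2 passed the test. Gstp1 was at 160.0, 129.6, 119 and 195 FPKM in CON_VD, 185, 187, 142 and 125 in CON_CS, 131, 147, 144 and 93.9 in DSS_VD and 134, 147, 80.9 and 74.7 in DSS_CS, and all 4 groups overlapped. Its log2 difference was -0.22 ± 0.20 (adjusted p = 0.417) in VD mice and -0.59 ± 0.25 (adjusted p = 0.0676) in CS mice. Gstp2, on chromosome 19 beside it, was at 41.6, 43.8, 36.2 and 62.4 FPKM in CON_VD, 53.5, 56.1, 41 and 38.2 in CON_CS, 30.5, 31, 28.2 and 19.4 in DSS_VD and 26.6, 28.6, 11.3 and 14.1 in DSS_CS. Gstp2 did not overlap between DSS and water, and it fell by 0.73 ± 0.20 (adjusted p = 0.0172) in VD and fell by 1.27 ± 0.29 (adjusted p = 0.00479) in CS mice. Of the 50-base words of Gstp2 transcripts, 49.1% also occur in Gstp1, so the split between this pair is uncertain.

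Omega and kappa enzymes passed the test in CS mice only. Gsto1, a thioltransferase that also reduces dehydroascorbate, was at 122, 95.4, 103 and 109 FPKM in CON_VD and 64.1, 97.5, 69.5 and 91.9 in DSS_VD, with overlap. In CS mice it went from 93.4, 95.7, 91.6 and 109 in CON_CS to 75.2, 28, 37.9 and 49.8 in DSS_CS, without overlap. The log2 difference was -0.43 ± 0.16 (adjusted p = 0.0628) in VD mice and Gsto1 fell by 1.10 ± 0.26 (adjusted p = 0.00538) in CS mice. Gstk1, the kappa-class enzyme of mitochondria and peroxisomes, was at 15.2, 15.5, 17.9 and 19.9 in CON_VD, 15.9, 15.1, 14.8 and 18.4 in CON_CS, 8.67, 16.4, 7.57 and 15.9 in DSS_VD and 12.7, 4.82, 3.16 and 5.4 FPKM in DSS_CS. Replicates 2 and 4 of DSS_VD were within the CON_VD range. The difference of Gstk1 was -0.53 ± 0.24 (adjusted p = 0.11) in VD mice, and it fell by 1.32 ± 0.31 (adjusted p = 0.00552) in CS mice. Without the 3 libraries with over 100 FPKM of Pbsn both calls in CS mice ended, with an adjusted p of 0.0792 for Gsto1 and 0.0884 for Gstk1. The interaction term, which tests the difference between the 2 responses, gave -0.68 ± 0.32 (adjusted p = 0.166) for Gsto1 and -0.79 ± 0.42 (adjusted p = 0.221) for Gstk1, so neither response was shown to differ between birth modes.

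Gsta4 was called higher in VD mice and lower in CS mice. This alpha-class enzyme conjugates hydroxynonenal, an end product of lipid peroxidation (chromosome 9, 78182774 to 78209349, plus strand). It was at 39.2, 39.6, 43.5 and 40.8 FPKM in CON_VD and 55.9, 76.1, 51.6 and 55.2 in DSS_VD, so every DSS_VD library was above every CON_VD library. In CS mice it was at 46, 51.1, 60 and 37.9 in CON_CS and 38.2, 13.5, 17.2 and 25.9 in DSS_CS, where DSS_CS replicate 1 overlapped the lowest CON_CS library. Gsta4 rose by 0.52 ± 0.13 (adjusted p = 0.0124) in VD mice and fell by 1.09 ± 0.29 (adjusted p = 0.0103) in CS mice. The rise in VD mice missed the threshold when all 16 libraries were fitted together (adjusted p = 0.0882). The fall in CS mice missed it without DSS_CS replicates 3 and 4 (adjusted p = 0.0631) and without the 3 libraries with over 100 FPKM of Pbsn (adjusted p = 0.106). None of its 50-base words occurs in another gene.

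Of the sulfotransferases, 4 of 6 tested were lower in VD mice, and in CS mice 5 of 7 were lower and 2 higher. Among the 5, Sult2b1 reached 1 FPKM in the water group alone. Sult1a1 (chromosome 7, 126672865 to 126676432, minus strand) was at 191, 156, 147 and 244 FPKM in CON_VD and 5.44, 4.18, 8.08 and 8.01 in DSS_VD. The CS libraries were at 93.3, 206, 190.1 and 124 in CON_CS and 6.0, 7.19, 7.74 and 8.39 in DSS_CS. The highest DSS library, at 8.39 FPKM, was far under the lowest water library, at 93.3 FPKM. Sult1a1 fell by 4.65 ± 0.22 (adjusted p = 5.43e-06) in VD and fell by 4.15 ± 0.24 (adjusted p = 1.91e-06) in CS mice. It overlaps exons of Sgf29 on the opposite strand.

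Sult1d1, which sulfates catecholamines and other amines and phenols (chromosome 5, 87554645 to 87569027, minus strand), was at 65.1, 82.9, 67.7 and 50.8 FPKM in CON_VD and 13.2, 25.4, 5.55 and 15.9 in DSS_VD. In CON_CS it was at 51.8, 66.5, 73.2 and 87.1, and in DSS_CS at 4.89, 0.687, 1.32 and 2.69. The 4 groups formed 3 levels without overlap: both water groups, then DSS_VD, then DSS_CS. Sult1d1 fell by 2.22 ± 0.37 (adjusted p = 0.00129) in VD and fell by 4.52 ± 0.36 (adjusted p = 9.16e-06) in CS mice. Its neighbour Sult1b1, a sulfotransferase of phenols and thyroid hormones (chromosome 5, 87513339 to 87538195, minus strand), was at 74.6, 66.7, 59.4 and 53.4 in CON_VD and 56.7, 70.7, 27.8 and 34.5 in DSS_VD. In the CS groups it was at 57, 65.7, 61.4 and 70.3 in CON_CS and 21.6, 5.11, 6.29 and 12.3 FPKM in DSS_CS. DSS_VD replicates 1 and 2 were within the water range, whereas all DSS_CS libraries were below it. The difference of Sult1b1 was -0.50 ± 0.27 (adjusted p = 0.181) in VD mice, and it fell by 2.58 ± 0.37 (adjusted p = 0.000294) in CS mice.

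Sult1c2 was at 12.2, 20.5, 22 and 8.66 FPKM in CON_VD, 10.6, 15.4, 14.8 and 21.4 in CON_CS, 1.99, 3.01, 1.39 and 2.41 in DSS_VD and 1.95, 0.24, 0.476 and 1.12 in DSS_CS. Sult2b1, the cholesterol and sterol sulfotransferase, was at 7.1, 5.94, 6.18 and 5.46, 3.57, 3.82, 3.87 and 3.11, 2.39, 2.44, 0.958 and 1.22 and 0.819, 0.266, 0.53 and 0.488 FPKM in the same order of groups. Neither gene overlapped between DSS and water. Sult1c2 fell by 2.33 ± 0.28 (adjusted p = 0.000275) in VD and fell by 3.13 ± 0.29 (adjusted p = 2.3e-05) in CS mice, and Sult2b1 fell by 1.42 ± 0.20 (adjusted p = 0.000478) and fell by 1.60 ± 0.12 (adjusted p = 7.29e-06).

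Sult4a1 and Sult1e1 were the tested sulfotransferases called higher, in CS mice. Both calls ended without DSS_CS replicates 3 and 4, and without the 3 libraries with over 100 FPKM of Pbsn, where the genes no longer passed the filter. Sult4a1, an orphan member known from brain and neurons, was at 1.46, 0.853, 1.73 and 1.61 FPKM in CON_VD and 1.28, 1.66, 1.4 and 1.57 in DSS_VD. In CS mice it went from 0.741, 1.08, 0.495 and 0.587 in CON_CS to 3.91, 5.41, 2.54 and 2.21 in DSS_CS, without overlap. The difference was 0.051 ± 0.14 (adjusted p = 0.799) in VD mice, and Sult4a1 rose by 1.34 ± 0.22 (adjusted p = 0.000667) in CS mice. Sult1e1, the estrogen sulfotransferase, adjoins Sult1d1 and was at 2.54, 0.483, 0.317 and 0.126 FPKM in CON_VD, 1.61, 0.416, 0.876 and 0 in CON_CS, 1.47, 0.46, 0.191 and 0.585 in DSS_VD and 3.62, 2.5, 2.05 and 2.21 in DSS_CS. All 4 DSS_CS libraries exceeded all CON_CS libraries, and Sult1e1 rose by 1.13 ± 0.28 (adjusted p = 0.00688) in CS mice. In CON_CS the highest values were 1.08 FPKM for Sult4a1 and 1.61 FPKM for Sult1e1, and all others but these were under 1 FPKM. Both genes thus passed the filter mainly through the DSS_CS libraries, so their rises are not independent of the filter. In VD mice it was below the filter and was not tested. Sult5a1, named after its values were seen, was below the filter in both, at 0.0357 to 0.102 FPKM in CON_VD, 0.028 to 0.115 in CON_CS, 0.156 to 0.507 in DSS_VD and 0.531 to 0.872 in DSS_CS. Its DSS and water libraries did not overlap, and with no filter limma gave it 0.27 ± 0.08 (adjusted p = 0.0409) in VD and 0.64 ± 0.07 (adjusted p = 0.000239) in CS mice. Over the same groups the 4 enteric glia markers summed to 1.43 to 2.66 FPKM in CON_VD, 1.78 to 1.99 in CON_CS, 5.93 to 7.89 in DSS_VD and 9.50 to 20.8 in DSS_CS. The 6 adipocyte markers summed to 4.55 to 78.8, 3.03 to 6.97, 12.3 to 46.9 and 37.1 to 187 in that order. No marker of either list was at 0 in all libraries of a group, and their part in these rises was not tested.

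Glucuronosyltransferases fell in 4 of 6 tested genes in each birth group, and the 4 were Ugt2b34, Ugt2b35, Ugt1a1 and Ugt1a7c both times. Ugt2b35 and Ugt1a1 reached 1 FPKM in the water groups alone and so had to differ, and of the others 2 of 4 fell in each birth group. Ugt2b34, the most abundant member (chromosome 5, 86889767 to 86906937, minus strand), was at 83.8, 108, 88.2 and 81.2 FPKM in CON_VD and 10.7, 10.9, 6.07 and 17.9 in DSS_VD. The CS libraries were at 65.1, 73.9, 77.8 and 66.6 in CON_CS and 4.88, 1.22, 2.05 and 4.97 in DSS_CS. No DSS library overlapped a water library, and no DSS_CS library overlapped DSS_VD. Ugt2b34 fell by 2.96 ± 0.26 (adjusted p = 6.87e-05) in VD and fell by 4.19 ± 0.31 (adjusted p = 5.76e-06) in CS mice. Ugt2b35, from the same run, was at 7.01, 8.77, 7.66 and 8.39 FPKM in CON_VD, 6.47, 7.73, 8.28 and 6.41 in CON_CS, 0.141, 0.0851, 0.0131 and 0.489 in DSS_VD and 0, 0, 0.0168 and 0.0132 in DSS_CS. It went from several FPKM to under 1 FPKM, and fell by 2.93 ± 0.14 (adjusted p = 5.43e-06) in VD and fell by 3.02 ± 0.10 (adjusted p = 1.6e-07) in CS mice.

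The Ugt1a genes are alternative first exons spliced to shared last exons, and 52.1% to 80.2% of the 50-base words of their transcripts occur in other genes, so the split between them is uncertain. Ugt1a1 (chromosome 1, 88211959 to 88218997, plus strand) was at 7.74, 11.1, 15.8 and 14.5 FPKM in CON_VD, 11.3, 9.55, 11.5 and 8.93 in CON_CS, 0.493, 0.247, 0.385 and 0.676 in DSS_VD and 0.293, 0.0909, 0.0921 and 0.954 in DSS_CS. Every DSS library was under 1 FPKM, and the lowest water library was at 7.74 FPKM. Ugt1a1 fell by 3.16 ± 0.20 (adjusted p = 1.77e-05) in VD and fell by 3.10 ± 0.19 (adjusted p = 2.33e-06) in CS mice. Ugt1a7c, the most abundant Ugt1a gene, was at 30.6, 36.3, 30 and 45.3 FPKM in CON_VD, 33.5, 33.3, 35.6 and 30.9 in CON_CS, 9.44, 9.44, 9.38 and 12.6 in DSS_VD and 8.81, 6.69, 11.3 and 10.7 in DSS_CS. It kept a measurable level under DSS, and fell by 1.70 ± 0.16 (adjusted p = 8.11e-05) in VD and fell by 1.75 ± 0.15 (adjusted p = 1.23e-05) in CS mice.

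Ugt1a6b, a phenol-conjugating isoform, was at 2.34, 1.67, 9.54 and 4.23 FPKM in CON_VD, 1.75, 2.34, 3.18 and 2.35 in CON_CS, 1.4, 1.29, 1.27 and 2.59 in DSS_VD and 1.92, 1.6, 1.58 and 1.68 in DSS_CS. The groups overlapped in each birth mode, and the difference was -0.86 ± 0.39 (adjusted p = 0.105) in VD and -0.32 ± 0.13 (adjusted p = 0.0527) in CS mice. Its near copy Ugt1a6a differed by -0.55 ± 0.31 (adjusted p = 0.189) and -0.042 ± 0.22 (adjusted p = 0.883). Ugt1a9 was listed at 0 in all 8 DSS libraries, and at 2.67, 3.25, 6.79 and 0 FPKM in CON_VD and 0, 2.94, 0 and 2.78 in CON_CS. Since 3 water libraries were listed at 0 too, it was under the filter and no change is stated.

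**Figure D2:**
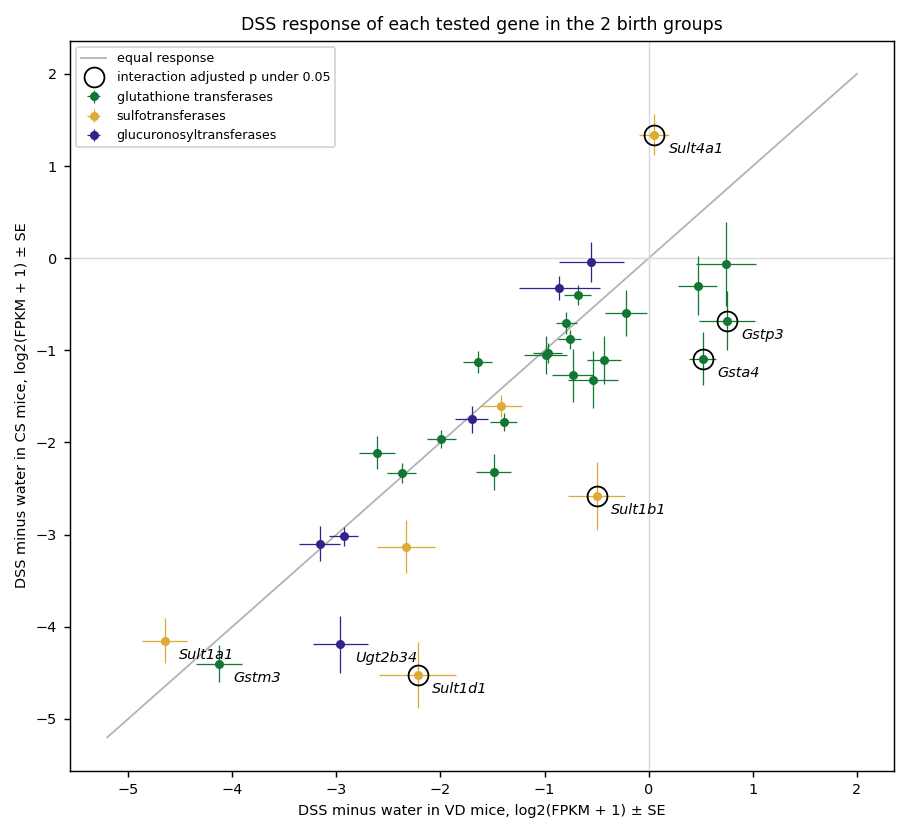
Log2 difference between DSS and water in VD mice (horizontal) and CS mice (vertical) for each gene tested in both, on the log2(FPKM + 1) scale with SE; color gives the family and the line marks equal responses. Most genes are below 0 on both axes, and the 5 ringed genes have an interaction adjusted p under 0.05: Sult1b1, Sult1d1, Gsta4 and Gstp3 below the line and Sult4a1 above it.

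Under DSS the FPKM sum of the glutathione transferases stood at a higher share of its water level than the sums of the other families. The order of the other families differed between the birth modes. The FPKM sum of the 22 glutathione transferases was 681 ± 61.6 (SD, n = 4) in CON_VD, 676 ± 62 in CON_CS, 402 ± 37.2 in DSS_VD and 301.1 ± 63.3 in DSS_CS. The 12 sulfotransferases summed to 339 ± 26.4, 307 ± 63.1, 75.4 ± 26.6 and 29.3 ± 10.2 FPKM in the same order of groups. The 16 glucuronosyltransferases summed to 156 ± 15, 128 ± 9.33, 25.0 ± 8.26 and 16.7 ± 3.44 FPKM. For each family every DSS library was below every water library of the same birth mode. The glutathione transferase sum under DSS was 59% of water in VD and 44.6% in CS mice, that of sulfotransferases 22.2% and 9.55%, and that of glucuronosyltransferases 16% and 13%. Family sums are descriptions, carried by a few abundant genes: Gstp1, Gstm1 and Gsto1 for glutathione, Sult1a1, Sult1b1 and Sult1d1 for sulfate, and Ugt2b34 and Ugt1a7c for glucuronic acid. The difference between families was not tested.

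**Figure D3:**
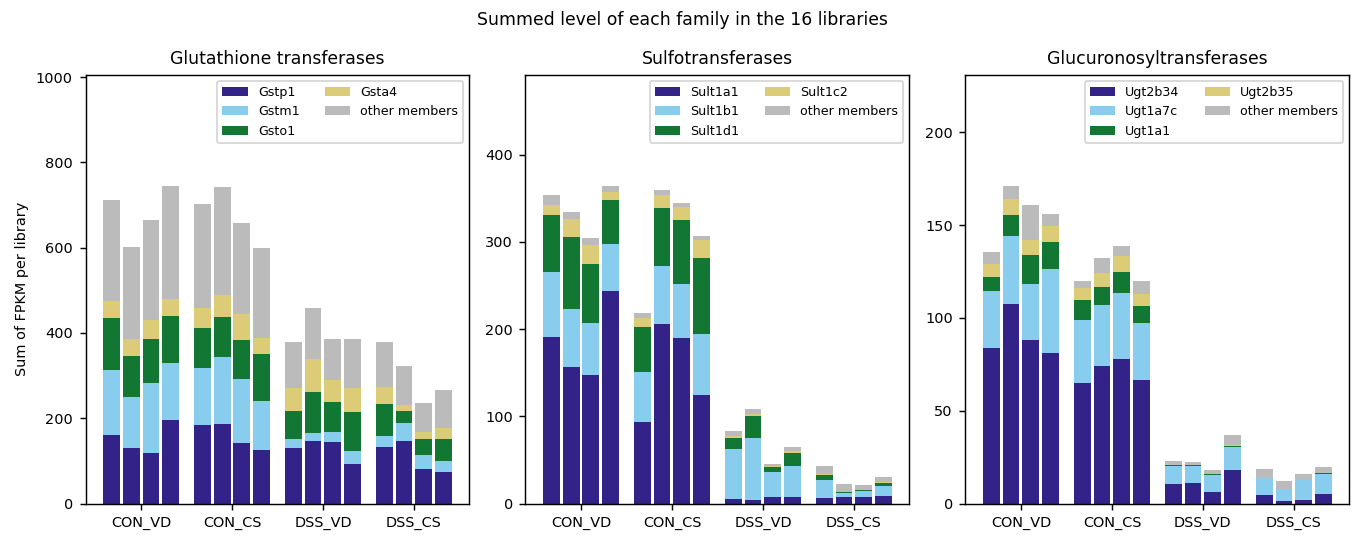
Stacked bars of summed FPKM per library for the 3 families, 4 libraries per group in replicate order, with the 4 most abundant members of each in color and the rest in grey. The Sult1a1 share is nearly gone in all DSS libraries, the Sult1b1 share remains in DSS_VD, and Gstp1 makes up much of what is left of the glutathione transferases.

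Markers of cell types moved over the same groups. Under DSS the pan-epithelial sum was 63.6% of water in VD and 24.2% in CS mice, the absorptive colonocyte sum 75.2% and 23.2%, and the goblet cell sum 35.1% and 17.7%. Fibroblast markers stood at 339% and 565% of water, and macrophage markers at 436% and 631%. Smooth muscle markers stood at 54.4% and 82.2%. The 5 erythrocyte markers summed to 53.6 to 332 FPKM in CON_VD, 28.4 to 47.7 in CON_CS, 241 to 975 in DSS_VD and 903 to 9731 in DSS_CS, so that the DSS groups overlapped. Of the 10 pan-epithelial markers, 4 were lower under DSS in VD mice and 10 in CS mice. The glucuronosyltransferase and sulfotransferase sums were a smaller share of their water level than the pan-epithelial sum in both birth groups. The glutathione transferase sum was at 59% beside 63.6% in VD mice and at 44.6% beside 24.2% in CS mice. These differences were not tested. The part of cell composition in these changes was not tested.

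**Figure D4:**
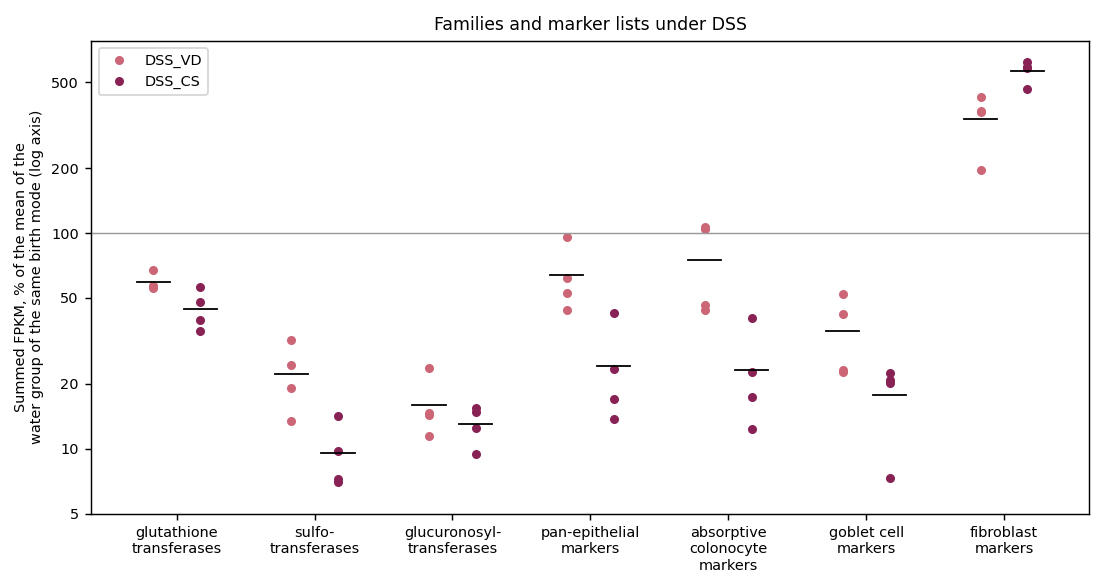
Summed FPKM of the 3 families and of 4 marker lists in each DSS library, as a percentage of the mean of the water group of the same birth mode (log axis); bars are means of 4. Glucuronosyltransferases average 16% in DSS_VD and 13% in DSS_CS, whereas pan-epithelial markers average 63.6% in DSS_VD and 24.2% in DSS_CS.

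The second question was whether birth mode made a difference under DSS. Cesarean-born mice on DSS had less Sult1b1, Sult1d1, Ugt2b34, Gsta4 and Gstt2 than vaginally born mice on DSS, and more Sult1e1 and Sult4a1. Sult1d1 was 6.26-fold, Sult1b1 4.19-fold, Ugt2b34 3.47-fold and Gsta4 2.52-fold lower. Without DSS_CS replicate 1 the fold of Sult1d1 was 9.6. Sult1a1, Ugt1a1, Ugt1a7c and the tested mu-class genes were at overlapping levels in the 2 DSS groups. Of the 50 genes 26 were tested, and the 7 calls compare with 13.4% of 14313 genes called across the table, 5.54% lower and 7.89% higher. By family the calls were 2 of 16 glutathione transferases, 4 of 6 sulfotransferases and 1 of 4 glucuronosyltransferases. The median log2 difference over the 26 was -0.34, against 0.06 for all tested genes.

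The library values of these genes are given above, since the DSS_CS libraries serve in this comparison and in that of DSS with water. Sult1d1 was lower by a log2 difference of -2.23 ± 0.49 (adjusted p = 0.0331), Sult1b1 by -2.08 ± 0.45 (adjusted p = 0.0327), Ugt2b34 by -1.57 ± 0.39 (adjusted p = 0.0383) and Gsta4 by -1.38 ± 0.29 (adjusted p = 0.0327). All 4 DSS_CS libraries were below all 4 DSS_VD libraries for each of these genes. Gstt2, named here after its values were seen, was at 4.51, 5.21, 3.98 and 5.13 FPKM in DSS_VD and 3.6, 2.88, 2.68 and 3.67 in DSS_CS, a difference of -0.44 ± 0.12 (adjusted p = 0.0456). Sult1e1 was higher by 1.13 ± 0.23 (adjusted p = 0.0319) and Sult4a1 by 0.81 ± 0.21 (adjusted p = 0.0411). Most DSS_VD libraries of Sult1e1 were under 1 FPKM, so it passed the filter here mainly through DSS_CS and its call is not independent of the filter. Sult1b1, Sult1d1 and Sult1e1 are adjacent genes between 87513339 and 87591594 of chromosome 5, and the first and second were lower while the third was higher.

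For genes that did not pass, Gsto1 differed by -0.82 ± 0.29 (adjusted p = 0.0898), Gstm1 by 0.45 ± 0.21 (adjusted p = 0.167) and Sult1a1 by 0.20 ± 0.20 (adjusted p = 0.527). The sulfotransferase sum was the 1 family sum whose DSS groups did not overlap, at 38.9% of the VD level. It was 74.9% for glutathione transferases and 66.6% for glucuronosyltransferases, with overlap. The pan-epithelial sum in DSS_CS was 40.4% of that in DSS_VD, and 6 of its 10 markers were lower and none higher. The absorptive colonocyte sum was 29.2% and the goblet cell sum 33.8%, whereas the fibroblast sum was 192% and the erythrocyte sum 878% with overlap, and the part of these markers was not tested.

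These calls rest on few libraries. The number of transferases called was 0 without DSS_VD replicate 1, 2 or 4 or DSS_CS replicate 2 or 3, 2 without DSS_CS replicate 4 and 12 without DSS_CS replicate 1. In these 5 fits with 0 calls, limma called 0 to 604 genes of the whole table, against 1923 in the main fit. It gave 3496 to 4415 genes an unadjusted p under 0.05. Without DSS_CS replicates 3 and 4 the count was 0 as well, with 6 genes of the whole table called and 3119 at an unadjusted p under 0.05. The direction of each of the 7 genes was the same in all alternatives in which it was tested, and the adjusted p of Sult1b1 ranged from 0.00131 to 0.138 and that of Sult1d1 from 0.00156 to 0.14.

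The third question was whether the DSS response itself differed by birth mode, which the interaction in all 16 libraries tests. It was called for 5 of 34 tested genes, or 14.7%. This is near the 13.2% of 15233 genes called across the table, 6.55% lower and 6.68% higher. A negative value means that the log2 difference from water was lower in CS than in VD mice. Negative interactions were called for Sult1d1 with -2.29 ± 0.56 (adjusted p = 0.0196), Sult1b1 with -2.09 ± 0.49 (adjusted p = 0.0178), Gsta4 with -1.62 ± 0.34 (adjusted p = 0.012) and Gstp3 with -1.43 ± 0.45 (adjusted p = 0.048). A positive value was called for Sult4a1 with 1.29 ± 0.27 (adjusted p = 0.0119). Gstp3, the third pi-class gene, was named after its values were seen. It was at 4.98, 3.46, 1.85 and 2.34 FPKM in CON_VD, 6.34, 5.31, 3.42 and 4.22 in CON_CS, 3.86, 8.55, 4.62 and 6.81 in DSS_VD and 4.72, 1.27, 1.52 and 3.92 in DSS_CS, and its groups overlapped.

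Several genes with steep falls in both birth groups did not pass. The interaction of Sult1a1 was 0.50 ± 0.35 (adjusted p = 0.359), that of Gstm3 -0.27 ± 0.31 (adjusted p = 0.603), that of Ugt1a1 0.067 ± 0.29 (adjusted p = 0.902) and that of Ugt2b34 -1.23 ± 0.43 (adjusted p = 0.0687). No glucuronosyltransferase of 7 tested passed in limma, and 1 had an unadjusted p under 0.05, as had 4674 of 15233 genes over the whole table. Sult4a1 passed in all 28 alternatives, with adjusted p from 0.00411 to 0.0312. Gsta4 and Sult1b1 passed in all but 1, which left out the 3 libraries with over 100 FPKM of Pbsn and gave adjusted p of 0.0536 and 0.0718. Sult1d1 failed there, without DSS_CS replicates 3 and 4, and without a filter on low values, with adjusted p up to 0.0665. Gstp3 failed in 17 of the 28, with adjusted p up to 0.146.

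The last comparison was birth mode in mice on water. The CS sums were 99.2% of the VD sums for glutathione transferases, 90.6% for sulfotransferases and 81.8% for glucuronosyltransferases, with overlap each time. Sult2b1 was the 1 gene of 33 tested that passed, where 0.407% of 13275 genes were called across the table, 0.226% lower and 0.181% higher. Its libraries, given above, did not overlap, and it was lower in CS mice by -0.64 ± 0.10 (adjusted p = 0.0363). Leaving out single libraries ended this call for CON_VD replicates 1, 2 and 3 and for each of the 4 CON_CS libraries. Sult2b1 overlaps exons of Lmtk3 on the opposite strand. Among the 20 glutathione transferases none passed in limma and 3 had an unadjusted p under 0.05, and among the 7 glucuronosyltransferases none passed and 1 did. Gsta3, at 2.63, 2.81, 3.62 and 3.79 FPKM in CON_VD and 6.39, 8.03, 5.74 and 4.27 in CON_CS, did not overlap and differed by 0.74 ± 0.17 (adjusted p = 0.0937). Ugt2b34 did not overlap either and differed by -0.34 ± 0.11 (adjusted p = 0.17). The median over the 33 was -0.08, against 0.03 for all genes.

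Genes that supply or serve the 3 reactions were counted as lists. The share of a list called in either direction is given beside the 40.9% of all tested genes called in VD mice and the 60.3% in CS mice. Calls of listed genes between the DSS groups come from the same fit as those of the transferases. In that fit 0 genes of the whole table were called without DSS_VD replicate 1, so these calls end there too. Of the sulfate donor list 5 of 8 were lower under DSS in VD mice, and 6 of 8 lower with 1 higher in CS mice, so 62.5% and 87.5% were called. Papss1, which makes the donor PAPS, fell by 1.47 ± 0.13 (adjusted p = 8e-05) in VD and fell by 1.88 ± 0.08 (adjusted p = 5.48e-07) in CS mice. Its relative Papss2 fell by 0.58 ± 0.19 (adjusted p = 0.0329) and fell by 1.42 ± 0.28 (adjusted p = 0.002). Slc26a2, a sulfate transporter, fell by 1.99 ± 0.32 (adjusted p = 0.00111) and fell by 2.86 ± 0.27 (adjusted p = 2.77e-05), and was lower in DSS_CS than in DSS_VD by -1.14 ± 0.32 (adjusted p = 0.0495).

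Of the UDP-glucuronate list 2 were higher and 1 lower of 6 in VD mice and 2 higher and 2 lower in CS mice, and the shares called, 50% and 66.7%, were near those of all genes. Ugdh, which makes UDP-glucuronate, fell by 1.59 ± 0.16 (adjusted p = 0.000109) and fell by 0.77 ± 0.16 (adjusted p = 0.00263), and Slc35b1 and Gusb, the lysosomal glucuronidase, were higher in both. Of glutathione synthesis and recycling genes, 5 of 14 were higher and 2 lower in VD mice, and 7 of 13 higher and 2 lower in CS mice, which is 50% and 69.2% called, also near those of all genes. Slc7a11, the cystine importer, rose by 1.27 ± 0.13 (adjusted p = 0.000144) and rose by 1.76 ± 0.15 (adjusted p = 1.59e-05), and Gpx3, the secreted glutathione peroxidase, rose by 1.47 ± 0.19 (adjusted p = 0.000395) and rose by 2.43 ± 0.24 (adjusted p = 3.02e-05). Gclc, the catalytic subunit of the rate-limiting ligase, differed by 0.10 ± 0.13 (adjusted p = 0.553) in VD mice and rose by 0.58 ± 0.13 (adjusted p = 0.00348) in CS mice.

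The membrane-bound (MAPEG) glutathione transferases, a family apart from the cytosolic ones, had 4 of 5 genes called in VD mice (80%) and 5 of 5 in CS mice (100%). Ltc4s and Ptges make leukotriene C4 and prostaglandin E2. Ltc4s rose by 0.94 ± 0.21 (adjusted p = 0.00601) in VD and rose by 2.20 ± 0.16 (adjusted p = 5.14e-06) in CS mice, and Ptges rose by 2.21 ± 0.17 (adjusted p = 4.59e-05) and rose by 3.13 ± 0.18 (adjusted p = 1.6e-06). Mgst3 fell by 0.95 ± 0.26 (adjusted p = 0.0165) and fell by 2.12 ± 0.32 (adjusted p = 0.000409). Mgst1 fell by 0.69 ± 0.21 (adjusted p = 0.0251) in VD mice and rose by 0.51 ± 0.11 (adjusted p = 0.00403) in CS mice. On water it was lower in CS mice by -0.99 ± 0.16 (adjusted p = 0.0384), the 1 call of the 5 genes in that comparison. There 0.407% of 13275 tested genes were called, 0.226% lower. Without CON_VD replicate 3 limma called 0 genes of the whole table on water, so this call ends there. Between the DSS groups 2 of the 5 were higher and 2 lower in CS mice, where 7.89% of all tested genes were higher and 5.54% lower.

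Of 6 export pumps tested, 2 were higher and 2 lower in VD mice (66.7% called), and 3 and 3 in CS mice (100%). Abcc3, which exports glucuronides, fell by 1.39 ± 0.15 (adjusted p = 0.000142) and fell by 1.75 ± 0.21 (adjusted p = 0.000123), and Slc22a18 fell by 0.98 ± 0.24 (adjusted p = 0.00913) and fell by 2.38 ± 0.31 (adjusted p = 0.000184), whereas Abcc1 and Abcc5 were higher. Among Nrf2 pathway genes 4 of 12 were higher and 1 lower in VD mice, and 6 and 1 in CS mice, and the shares called, 41.7% and 58.3%, were about those of all genes. Hmox1, heme oxygenase, rose by 2.37 ± 0.19 (adjusted p = 5.27e-05) and rose by 3.70 ± 0.19 (adjusted p = 9.64e-07), and Nqo1, a quinone reductase, fell by 0.83 ± 0.21 (adjusted p = 0.0114) and fell by 1.09 ± 0.16 (adjusted p = 0.000383). Under DSS Hmox1 was higher in CS than in VD mice by 1.41 ± 0.24 (adjusted p = 0.0313).

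Transcription factors of drug-metabolising genes were lower in 7 of 13 tested and higher in 2 in VD mice, and lower in 9 and higher in 2 in CS mice, so 69.2% and 84.6% were called. Hnf4a, a factor of the epithelial lineage, fell by 1.38 ± 0.17 (adjusted p = 0.000324) and fell by 2.99 ± 0.34 (adjusted p = 7.28e-05). Nr1i2, the pregnane X receptor, fell by 0.83 ± 0.19 (adjusted p = 0.00684) and fell by 2.61 ± 0.34 (adjusted p = 0.000171), and Vdr, the vitamin D receptor, fell by 1.86 ± 0.18 (adjusted p = 0.000116) and fell by 3.17 ± 0.17 (adjusted p = 1.41e-06). Ahr, the aryl hydrocarbon receptor, rose by 0.46 ± 0.14 (adjusted p = 0.0242) and rose by 0.78 ± 0.15 (adjusted p = 0.00171). Between the DSS groups 5 of 13 were lower in CS mice, where 5.54% of all tested genes were lower. Among the 5 were Hnf4a with -1.58 ± 0.37 (adjusted p = 0.0356) and Nr1i2 with -1.66 ± 0.38 (adjusted p = 0.0352). On water none of the 6 lists other than MAPEG held a gene that passed in limma. At an unadjusted p under 0.05 there were 2 of 11 glutathione supply genes, 1 of 8 sulfate donor genes, 1 of 6 UDP-glucuronate genes, 4 of 6 exporters, 4 of 11 Nrf2 genes and 2 of 14 regulators. Over the whole table it was 2598 of 13275 genes. Hnf4a and Cdx2 are themselves expressed in epithelial cells, and the pan-epithelial marker sums given above moved over the same groups. The part of cell composition in the changes of these factors was not tested.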

How the data were processed

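Colon RNA of 16 libraries was measured, 4 in each of CON_VD, CON_CS, DSS_VD and DSS_CS, grouped by the titles. The authors deposited 1 table of FPKM values for 39328 genes. Per the labels' protocols, Trizol was used for extraction of total RNA. The submitters' processing notes list cutadapt (trimming), FastQC (quality control) and GRCm38 and give no versions. How reads were aligned, counted and annotated, and with which strand setting, was not given in the sources used here. The deposited gene values appear to combine transcripts: 96.7% of genes with several transcripts, and 0.69% of those with 1, carried values of more than 6 decimals. Depth is unknown, so no counting interval is given, and precision rests on the 4 libraries per group.

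Identifiers were matched to symbols through a reference table (39181 matched, 147 not), and positions came from GENCODE M21. By the symbol rule 2 pseudogenes were left out, and 14 other symbols that match it were not analysed here. Values were taken as log2(FPKM + 1), and limma 3.58.1 (R 4.3.3) was fitted across the whole table with a variance trend. This scale understates changes of low genes. Genes with an FPKM of at least 1 in at least 4 fitted libraries were tested, two-sided, with Benjamini-Hochberg adjustment over all tested genes and a threshold of 0.05. Each comparison of 2 groups used its own 8 libraries and the interaction all 16. Repeated sequence was measured as the share of 50-base words of a gene's transcripts found in transcripts of another gene. Figures were drawn with matplotlib 3.10.9.

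The members, lists and tests were chosen with earlier results of these data known. The values of 1 listed transcription factor are not reported here, and it stays in the counts of its list. Genes shown with every library were the 10 glutathione transferases and the 5 sulfotransferases and 5 glucuronosyltransferases of highest mean, then called genes in order of adjusted p, up to 24. The fit was tested on simulated data. Alternatives were the pseudocount, the filter, the scaling, library weights, 1 joint fit, a replicate block and leaving out each library. Leaving out libraries with prostate genes was added after seeing the data.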

Additional observations from a re-analysis of the deposited data

Results flagged for a closer look

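In 7 of 135 sets of 4 libraries, 1 library stood apart from the other 3 by Dixon's criterion, which chance exceeds in about 1 of 20 sets. Gsta2 was at 1.65 FPKM in CON_VD replicate 3, against 0.763 to 0.87 in the others of its group. Gstt1 was at 18.5 FPKM in CON_VD replicate 4 against 11.2 to 11.8, and at 9.72 in DSS_CS replicate 2 against 5.61 to 6.03. Sult1e1 was at 2.54 FPKM in CON_VD replicate 1 against 0.126 to 0.483. In DSS_VD replicate 4, Ugt1a6b was at 2.59 FPKM against 1.27 to 1.4, and Ugt1a7c at 12.6 against 9.38 to 9.44. The glutathione transferase sum was 457 FPKM in DSS_VD replicate 2 against 378 to 387.

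The DSS responses of VD and CS mice differed by the interaction term in limma for 5 of 34 tested genes. This is 14.7%, near the 13.2% of all 15233 tested genes. The interaction was -1.62 on the log2 scale for Gsta4 (adjusted p = 0.012), -1.43 for Gstp3 (adjusted p = 0.048), -2.09 for Sult1b1 (adjusted p = 0.0178), -2.29 for Sult1d1 (adjusted p = 0.0196) and 1.29 for Sult4a1 (adjusted p = 0.0119). Over these groups the pan-epithelial marker sum fell to 63.6% of water in VD mice and 24.2% in CS mice, and its part in the interactions was not tested.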

How the results depend on the processing

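Under DSS the number of transferases called stayed within 1.5 times of 22 in VD mice in every alternative run and of 27 in CS mice in every one except leaving out the 3 libraries with prostate genes, which gave 14, and no called gene reversed. For CS against VD under DSS the 7 calls became 0 without the filter on low values, where limma left 3 genes of the whole table called and 6351 at an unadjusted p under 0.05, 11 in 1 joint fit, 0 to 12 on leaving out single libraries, and 0 without DSS_CS libraries 3 and 4. On water the 1 call became 0 without the filter (3812 genes at an unadjusted p under 0.05), 3 with library weights, 0 in the joint fit (2306 such genes) and 0 to 1 on leaving out single libraries. Over the whole table limma called 54 genes in the main fit on water, 3 without the filter, 1405 with library weights and 77 in the joint fit. The 5 interaction calls became 3 without the filter, 4 to 10 on leaving out single libraries (10 without DSS_CS replicate 1), 3 without DSS_CS libraries 3 and 4 and 1 without the 3 libraries with prostate genes. Leaving out libraries makes groups smaller, and dropping the filter raised the number of tests from 14313 to 32941 genes for CS against VD under DSS. The cause of the lost and gained calls was not tested. Correlations gave no sign that replicate numbers pair the samples: of 24 same-numbered pairs 2 correlated over 0.1 in their deviations (range -0.278 to 0.128), and 5 correlated best with their own number. With so few libraries per group this check cannot exclude a pairing, for instance by litter or batch. With a replicate block the calls were 0 for CS against VD under DSS and 0 on water. There limma called 2 and 7 genes of the whole table, with 4252 and 1816 at an unadjusted p under 0.05. The block gave 21 calls in VD mice, 29 in CS mice and 6 for the interaction. The family ratios kept their values within 1 SD in all alternatives run. Low genes are limited by the pseudocount, and no depth was available to bound those listed at 0.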
